A study of Mus musculus with 2 samples.

Results

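*Bnip3* and 9 other genes of mitophagy and autophagy were examined in mouse embryonic stem cells (mESCs) depleted of AIMP3, a non-enzymatic protein found in the large complex of tRNA synthetases. The genes were *Bnip3*, its paralogue *Bnip3l*, *Fundc1*, *Pink1*, *Sqstm1*, *Map1lc3a*, *Map1lc3b*, *Gabarapl1*, *Becn1* and *Ulk1*. Members were found through the RefSeq accession that the array lists for each probe, and all 10 were among the 24020 genes tested. They were measured by 15 probes, and every channel of each array was well above background for all 15. The genes were chosen with their ratios on these arrays known, so their values are given as a description and were not tested.

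The mESCs came from blastocysts of AIMP3f/f;cre-ERT2 mice, in which both *AIMP3* alleles are flanked by loxP sites and a Cre recombinase becomes active when tamoxifen binds it. Depleted cells were exposed for 4 days to 2 μM tamoxifen, which the study's methods give as 4-hydroxytamoxifen (4-OHT), in medium with LIF and in 2 replicates. The labels say that the cells were generally grown on feeder layers of mouse embryonic fibroblasts, whereas the study's methods give medium conditioned by such fibroblasts for drug treatments, so whether feeder cells were present in these cultures is not settled. Control cells carried the same alleles and the same Cre and received ethanol, so an effect of 4-OHT or of active Cre cannot be told apart from the loss of AIMP3. A pool of RNA from the 2 control replicates carried Cy3 on each array, next to Cy5-labelled RNA of 1 depleted replicate. The control was therefore 1 sample, and the dyes were not swapped, so that an effect of depletion cannot be told apart from a difference between the dyes. Nothing in the labels says that the replicates came from separate clones or cultures, and the spread between them may be technical.

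Each value is a log2 ratio of AIMP3-depleted over control after background correction and loess normalization within the array, and a gene with several probes is represented by the brightest. The study's methods describe a ratio of control over test, the opposite direction; here it follows the dyes in the labels. Between 59.3% and 60.6% of spots were well above background in a channel, and no spot was saturated (0 spots). *Eef1e1*, which encodes AIMP3, had log2 ratios of -0.90 on both arrays (mean -0.90 ± 0.0066, SD, n = 2), so that 53.6% of the control signal remained. All tested genes had a median ratio of 0.02, and the median SD between the arrays was 0.048. The mESC markers *Pou5f1*, *Nanog*, *Sox2* and the other 10 of the list were all tested and well above background in the control channel.

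In mitophagy, damaged or surplus mitochondria are enclosed in an autophagosome and delivered to the lysosome. BNIP3, BNIP3L (also called NIX) and FUNDC1 are receptors in the outer mitochondrial membrane that bind LC3 and GABARAP proteins, which coat the forming membrane. PINK1 is a kinase that builds up on damaged mitochondria and phosphorylates ubiquitin there, and SQSTM1 (p62) links ubiquitinated cargo to LC3. ULK1 starts autophagosome formation and BECN1 belongs to the lipid kinase complex that follows it. *Bnip3* is known as a target of the hypoxia-inducible factors (HIFs), and *Sqstm1* and *Map1lc3b* are known targets of TFEB, a regulator of lysosomal genes.

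Promoter sequences are shown for the 3 members whose ratios lay farthest from 0, *Bnip3* below it and *Sqstm1* and *Map1lc3b* above it. Each runs from 250 bases before the transcription start to 50 bases after it, 5′ to 3′ on the strand of the gene, and was taken from RefSeq on GRCm38.p6. The letters ACGTG, one form of the core that HIFs bind, are in capitals wherever they occur on either strand. The regions are chr7:138909457-138909756 on the minus strand for *Bnip3*, chr11:50210771-50211070 on the minus strand for *Sqstm1* and chr8:121590188-121590487 on the plus strand for *Map1lc3b*.
Bnip3: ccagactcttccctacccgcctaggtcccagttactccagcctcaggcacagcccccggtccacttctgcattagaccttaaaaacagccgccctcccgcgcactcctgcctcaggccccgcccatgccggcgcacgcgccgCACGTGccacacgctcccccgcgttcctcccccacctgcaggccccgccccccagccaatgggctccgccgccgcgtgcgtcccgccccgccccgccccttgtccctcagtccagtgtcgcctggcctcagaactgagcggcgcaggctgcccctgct
Sqstm1: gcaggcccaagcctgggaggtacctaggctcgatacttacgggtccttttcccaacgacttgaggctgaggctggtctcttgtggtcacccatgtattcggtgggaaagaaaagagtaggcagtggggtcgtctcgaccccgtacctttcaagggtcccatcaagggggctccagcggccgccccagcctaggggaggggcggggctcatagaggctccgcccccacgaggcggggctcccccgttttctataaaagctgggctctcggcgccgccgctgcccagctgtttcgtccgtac
Map1lc3b: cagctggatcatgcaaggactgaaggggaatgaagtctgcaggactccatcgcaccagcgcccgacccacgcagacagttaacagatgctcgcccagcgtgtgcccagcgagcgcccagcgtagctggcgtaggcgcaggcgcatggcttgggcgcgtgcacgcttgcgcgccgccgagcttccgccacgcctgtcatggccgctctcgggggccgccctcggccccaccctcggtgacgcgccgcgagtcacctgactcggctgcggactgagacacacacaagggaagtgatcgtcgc

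The *Bnip3* promoter held ACGTG once on each strand, both within a single CACGTG palindrome that begins 108 bases before the start. This palindrome is the E-box core, and it contains ACGTG whichever strand is read. Of the 7 members with a promoter in the table, only *Bnip3* held ACGTG (1 of 7), which 19.6% of all 32851 promoters of this length held. The related core GCGTG was found 3 times in the *Bnip3* promoter, at 117, 99 and 35 bases before the start, and 5 times in that of *Map1lc3b*. It was present in 4 of 7 member promoters, also in those of *Pink1* and *Ulk1*, and in 32.4% of all promoters. CACGTG was present in 7.15% of all promoters. The longer palindrome TCACGTGA, a core of the element that TFEB binds, was in none of the member promoters (0 of 7) and in 0.974% of all promoters. Among 93 promoters of the other pathway genes described further on, 36.6% held ACGTG and 62.4% GCGTG, and these shares were 63.6% and 54.5% among 22 promoters of the HIF response genes. A match describes the letters in this window and is not evidence of binding. *Bnip3l*, *Map1lc3a* and *Becn1* had no entry in the table.

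*Bnip3* transcripts were lower in AIMP3-depleted mESCs than in the control pool on both arrays and by all 3 probes. The brightest probe (A_55_P2091473) gave -1.04 for replicate 1 and -1.18 for replicate 2, a mean of -1.11 ± 0.10 (SD, n = 2), or 46.3% of the control. A probe of nearly the same name (A_55_P2091472) gave -0.68 and -0.81, with 59.7% of the control left. The dimmest probe (A_66_P120736) gave -0.91 and -1.22, with a mean of -1.07. The means of the probes thus spanned 0.37 on the log2 scale, which is more than the SD between arrays of any one of them, and all were beyond 1.5-fold on each array.

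The scanned intensities behind these ratios were far above the local background. For the brightest probe the control channel read 17086.5 on the first array and 17504 on the second, against a background of 49 and 50. The depleted channel read 14709.5 and 11317, although Cy5 spots were in general the brighter ones, with a median ratio of Cy5 over Cy3 of 1.39 and 1.20 before normalization. The normalised log2 intensity of this probe was 14.47 and 14.37 in the control and 13.43 and 13.19 in the depleted cells. In the authors' deposited table, the dimmest probe had -1.12 and -1.54 and so lay farther from 0 than here.

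For the 3 *Bnip3* probes the arrays differed more in the depleted channel than in the control channel. From array 1 to array 2, the processed control signal of the brightest probe changed by -0.08 on the log2 scale and the depleted signal by -0.25. For the second probe these differences were -0.05 and -0.18, and for the dimmest 0.03 and -0.40. The control channels hold the same pooled RNA. A lower processed depleted signal on array 2 was found for 14 of the 15 member probes, and a lower control signal for 13. The depleted signal differed more between the arrays than the control signal for 8 of the 15 probes and less for 7.

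**Figure D1:**
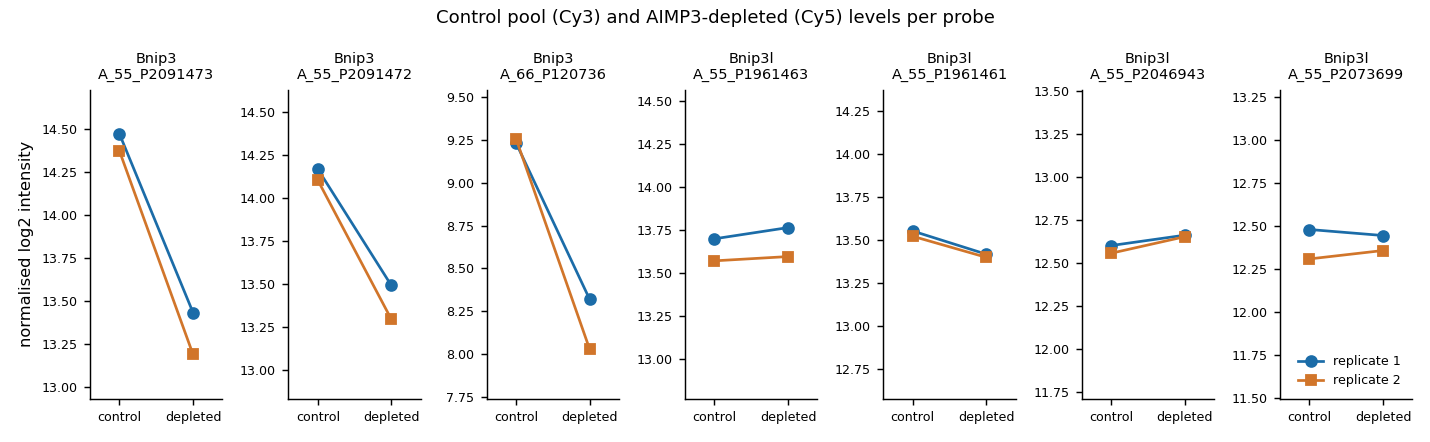
Normalised log2 intensity (y axis, a range of the same height around each probe's own level) of the 3 *Bnip3* and 4 *Bnip3l* probes in the control pool and in AIMP3-depleted cells, with a line for each array. The *Bnip3* lines fall from control to depleted on both arrays, from 14.47 to 13.43 and from 14.37 to 13.19 for the brightest probe, and the *Bnip3l* lines are close to level.

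*Bnip3l* encodes the other receptor of this pair and had ratios close to 0. Its 4 probes had mean log2 ratios between -0.13 and 0.08, and their mean was 0.00037. The brightest gave 0.07 and 0.02 (mean 0.05 ± 0.028, SD, n = 2), and a second one gave 0.06 and 0.10. The lowest gave -0.13 and -0.12, and the fourth changed sign between the arrays, with -0.04 and 0.05. Of the 4 probes, 2 were positive and 1 was negative on both arrays.

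The difference between the paralogues was larger than the spread between arrays. With the brightest probe of each, the log2 ratio of *Bnip3* minus that of *Bnip3l* was -1.10 on the first array and -1.21 on the second, a mean of -1.16 ± 0.073 (SD, n = 2). Over the 12 pairs of a *Bnip3* and a *Bnip3l* probe, the *Bnip3l* ratio was higher by 0.62 to 1.19. Since *Bnip3* was chosen with its ratio known, this difference was not tested.

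The remaining mitochondrial genes also lay near 0. *Fundc1*, the receptor known for hypoxic mitophagy, gave 0.03 and 0.04. *Pink1* gave 0.04 and 0.10, a mean of 0.07 ± 0.045 (SD, n = 2). Both genes were slightly above 0 on each array, and 53.3% of all tested genes had a lower ratio than *Fundc1* and 59.5% a lower ratio than *Pink1*.

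*Sqstm1* was the member with the highest ratio. Its single probe gave 0.62 and 0.64, a mean of 0.63 ± 0.017 (SD, n = 2), or 1.55-fold of the control. The scanned control signal was 1016 on the first array and 836 on the second, and the depleted signal 2604.5 and 1813. The processed signal was therefore lower on the second array in both channels, by -0.42 in the control and -0.36 in the depleted RNA, while the ratio differed by little. The ratio was 0.58, just under 1.5-fold, when taken from the processed signals that the scanner software gives. Of all tested genes, 95.2% had a lower ratio than *Sqstm1*.

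Of the 3 members from the LC3 and GABARAP family, whose products are lipidated and tether cargo to the membrane, *Map1lc3b* had the highest ratio. It gave 0.54 and 0.59, a mean of 0.57 ± 0.041 (SD, n = 2), or 1.48-fold, and passed 1.5-fold on the second array only. Its probe was spotted 10 times on each array, and these spots ranged from 0.45 to 0.61 on the first array and from 0.53 to 0.67 on the second. The SD between the 10 spots was 0.050 and 0.042, about as large as the SD between the arrays. *Map1lc3a* was lower than *Map1lc3b*, with 0.20 and 0.17 and a mean of 0.19. *Gabarapl1*, a member of the GABARAP branch, gave 0.06 and 0.09. The scanned control signals were 3816.85 and 3809.2 for *Map1lc3b* (mean of 10 spots), and the depleted signals 9394.9 and 8156.55. For *Map1lc3a* the control signals were 1015.5 and 1060 and the depleted ones 1919 and 1637. All of these were above the local background, which lay between 53.65 and 64 for both probes.

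*Becn1* and *Ulk1*, which act early in autophagosome formation, had the lowest ratios after *Bnip3*. *Becn1* gave 0.01 on the first array and -0.08 on the second, and these values lie on both sides of 0. *Ulk1* gave -0.12 and -0.15, a mean of -0.13 ± 0.020 (SD, n = 2). *Ulk1* was bright, with control signals of 17475 and 17063, and *Becn1* dim, with 754.5 and 766.5. With median centring in place of loess both turned positive, *Becn1* to 0.15 and *Ulk1* to 0.19, against a median of 0.18 for all genes. With the processed signals *Ulk1* was at -0.05 and *Becn1* at -0.15, and with the authors' deposited table at -0.0072 and -0.11, so that *Becn1* was the lower of the pair in both.

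**Figure D2:**
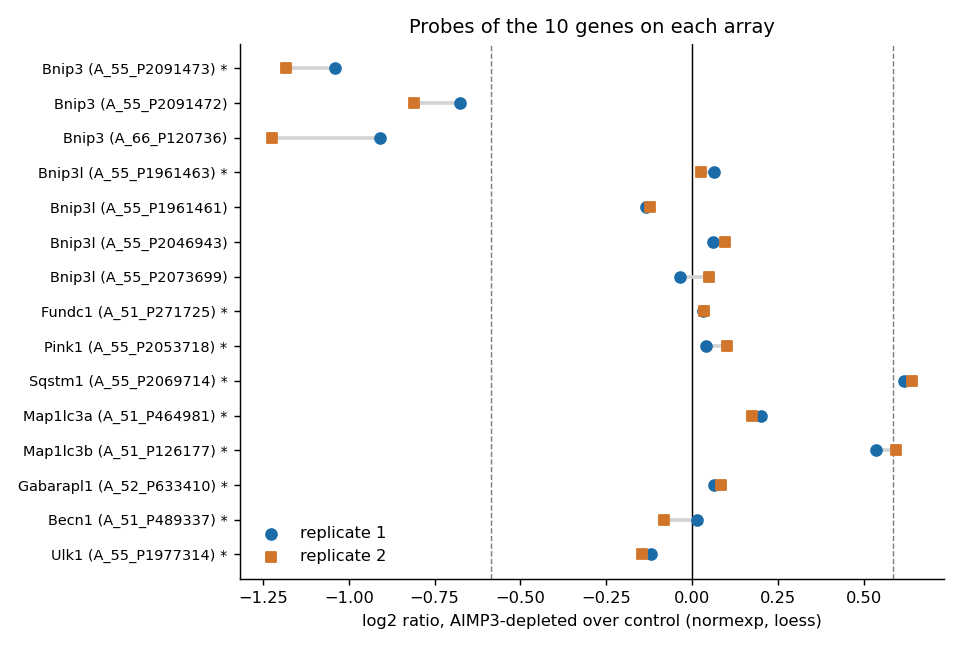
Log2 ratio of AIMP3-depleted over control (x axis) for each of the 15 probes of the 10 genes, with circles for replicate 1, squares for replicate 2, dashed lines at 1.5-fold and an asterisk at the probe that represents its gene. The 3 *Bnip3* probes lie below the lower line on both arrays, *Sqstm1* (0.62 and 0.64) lies above the upper one, and the 4 *Bnip3l* probes lie around 0.

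In order of the mean ratio, the members were *Bnip3* (-1.11), *Ulk1* (-0.13), *Becn1* (-0.03), *Fundc1* (0.03), *Bnip3l* (0.05), *Pink1* and *Gabarapl1* (both 0.07), *Map1lc3a* (0.19), *Map1lc3b* (0.57) and *Sqstm1* (0.63). From *Fundc1* to *Gabarapl1*, neighbours in this order had overlapping values on the arrays. *Bnip3*, *Ulk1*, *Becn1*, *Map1lc3a*, *Map1lc3b* and *Sqstm1* overlapped with no other member on the 2 arrays. The median of the 10 members was 0.06, against 0.02 for all tested genes, and 7 of the 10 were positive. A gene was called changed at over 1.5-fold with an unadjusted p under 0.05 by limma. By this rule 1 member was past the threshold above 0 (*Sqstm1*) and 1 below it (*Bnip3*), where 5.53% of all tested genes were called raised and 0.791% lowered (6.32% in either direction). The members were chosen from the same ratios, so nothing is read from these counts. Only 11 genes had a lower mean ratio than *Bnip3*, which is 0.0458% of those tested.

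**Figure D3:**
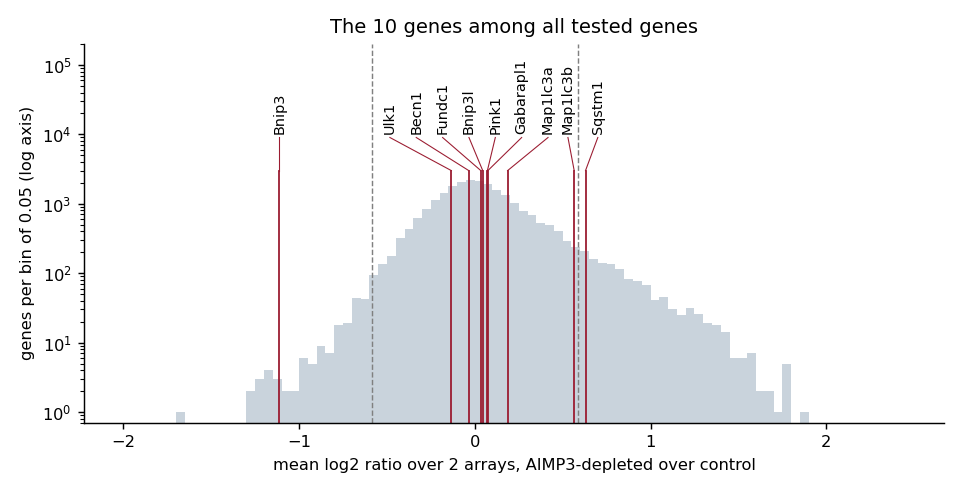
Number of genes (log axis) in each bin of the mean log2 ratio over 2 arrays (x axis) for all 24020 tested genes, with red lines at the 10 members and dashed lines at 1.5-fold. *Bnip3* at -1.11 lies in the lower tail, *Map1lc3b* and *Sqstm1* lie on either side of the upper threshold, and the other 7 lie in the bulk.

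*Bnip3*, *Sqstm1* and *Map1lc3b* stayed the members farthest from the median of all genes under the other ways of processing, while several members near 0 moved by more than their own size. Over 8 background corrections, normalizations, filters, probe rules and the authors' deposited table, the *Bnip3* ratio minus the median of all genes lay between -1.13 and -0.99. That of *Sqstm1* lay between 0.61 and 0.65, and that of *Map1lc3b* between 0.55 and 0.62. *Bnip3* was beyond 1.5-fold in 8 of the 8 and *Sqstm1* in 7, while *Map1lc3b* was so in 1, with median centring. For *Bnip3l* this value lay between -0.01 and 0.14, for *Gabarapl1* between 0.06 and 0.19, for *Becn1* between -0.12 and -0.03 and for *Ulk1* between -0.15 and 0.01. After subtraction of the median, the *Bnip3* value nearest to 0 came from averaging its 3 probes. Without subtraction it was -0.82, with median centring.

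**Figure D4:**
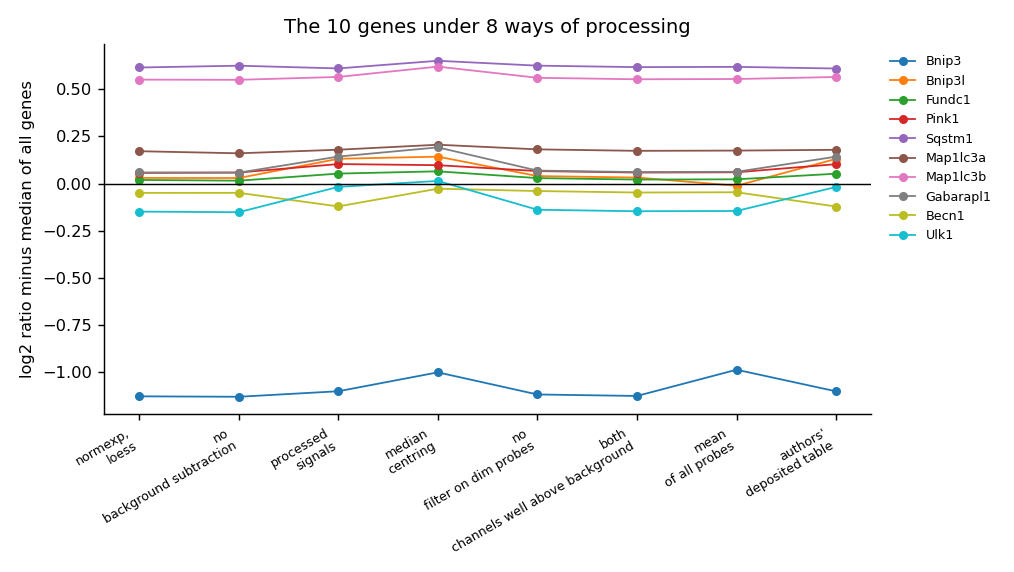
Log2 ratio of each of the 10 members minus the median of all tested genes (y axis) under 8 ways of processing (x axis). *Bnip3* stays between -1.13 and -0.99, *Sqstm1* between 0.61 and 0.65, and the members near 0 change places.

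A list of 83 autophagy and mitophagy genes without the 10 members was drawn up by role, and 81 were tested. *Gabarap* and *Vamp8* were raised past 1.5-fold (2 of 81, or 2.47%, where 5.53% of all tested genes were raised), and 0 of 81 were lowered by limma, where 0.791% of all genes were. At an unadjusted p under 0.05 and any fold, 40 of the 81 (49.4%) were above 0 and 14 (17.3%) below, where these shares were 33.5% and 27% of all tested genes. After Benjamini-Hochberg adjustment over all genes by limma, 37 (45.7%) were above 0 and 11 (13.6%) below, where these shares were 30.6% and 23.7% of all tested genes (54.3% in either direction). The median ratio of the list was 0.12, against 0.02 for all genes, and 56 of the 81 were positive. Of the 31 genes with more than 1 tested probe, 10 had probes of opposite sign. Genes under 1.5-fold are named as examples chosen after their values were seen.

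*Gabarap*, the founding gene of the GABARAP branch, gave 0.55 and 0.70 on the arrays, a mean of 0.62 ± 0.10 (SD, n = 2; adjusted p = 0.000235 by limma). A second, dimmer probe of the gene gave 0.51 and 0.52, and *Gabarap* was under 1.5-fold with the mean of its probes and with replicate 1 alone. *Gabarapl2*, the third gene of that branch, was at -0.02. *Vamp8*, a SNARE of the autophagosome and lysosome fusion step, was at 0.69 ± 0.051 (SD, n = 2; adjusted p = 0.000107 by limma), from 0.66 and 0.73. It was over 1.5-fold on both arrays, the only gene of the list for which this held with its brightest probe (1 of 81). *Snap29*, a SNARE of the same step, was at 0.18 by its brightest probe, but a second probe of almost the same level gave 0.70 and 0.71. *Stx17*, its partner on the autophagosome, was at 0.58 by its brightest probe, but its other 2 probes had means of 0.08 and 0.10 and changed sign between the arrays.

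Upstream of these steps, *Rb1cc1*, a scaffold of the ULK1 complex, was at 0.45 (adjusted p = 0.000987 by limma) and its second probe gave 0.50. In the lipid kinase complex that contains BECN1, *Uvrag* was at 0.47 and *Rubcn*, a negative regulator of that complex, at 0.51, while the catalytic subunit gene *Pik3c3* was at -0.09 and 0.03 by its 2 probes. Of the genes for membrane supply, *Wdr45*, a gene of the WIPI family, was at 0.58 and 0.59 by its 2 probes, the brighter of them just under 1.5-fold. *Atg7*, the activating enzyme of both conjugation systems, was at 0.40, with a dimmer probe at 0.14, and *Atg5* was at 0.05. The median of the conjugation genes was 0.08 (10 tested) and that of the membrane supply genes 0.21 (10 tested).

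Other mitophagy genes had ratios of both signs. By limma 0 of 6 receptor genes and 0 of 12 genes of the PINK1 and ubiquitin branch were called, where 6.32% of all tested genes were, so with these few genes nothing is read from the count. The receptor genes *Fkbp8* and *Bcl2l13* were at 0.18 and -0.22, and *Phb2*, which encodes prohibitin 2 of the inner membrane, was at -0.20 (adjusted p of 0.0157, 0.0079 and 0.00914 by limma). A dimmer *Phb2* probe gave -0.03. At an unadjusted p under 0.05, 3 of the 6 receptor genes were above 0 and 3 below (33.5% and 27% of all tested genes were), and the median of the 6 was -0.04. In the PINK1 and ubiquitin branch these counts were 5 and 1 of 12. *Usp30*, a deubiquitinase of the outer membrane, was at 0.29, and *Mfn2*, which encodes mitofusin 2, at 0.53, with its other 2 probes at 0.16 and 0.32. Of the regulators, *Tfeb* had the highest ratio at 0.56 ± 0.059 (SD, n = 2; adjusted p = 0.000226 by limma), and *Deptor*, an inhibitor of mTOR, the lowest at -0.43.

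**Figure D5:**
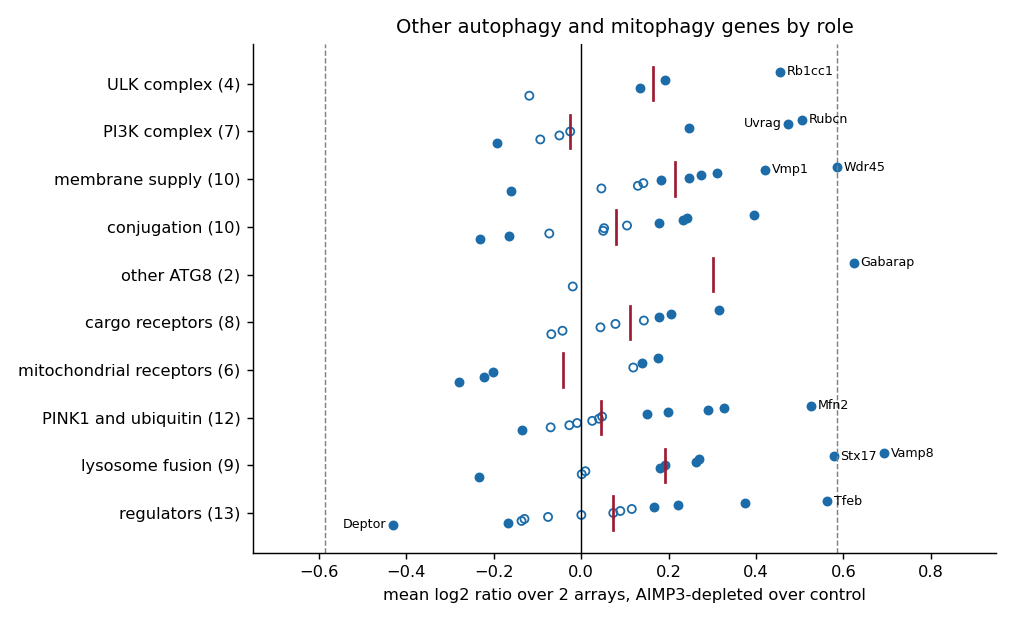
Mean log2 ratio over 2 arrays (x axis) of the 81 tested pathway genes other than the members, in rows by role with the number tested. Filled points have an adjusted p under 0.05 by limma, open points do not, red bars are medians and dashed lines mark 1.5-fold; *Gabarap* (0.62) and *Vamp8* (0.69) lie above the upper line and no gene lies below the lower one.

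The count of pathway genes past the threshold differed between arrays and normalizations, and so did the share of all genes. With replicate 2 alone, 5 (6.17%) were over 1.5-fold upwards, where 5.82% of all genes were, and with replicate 1 alone, 2 (2.47%) were, against 5.51%. There were 6 raised (7.41%) with the processed signals and also with the table that the authors deposited, where 8.08% and 8.87% of all genes were raised. With median centring 11 (13.6%) were raised, against 11.8% of all genes. The share of pathway genes raised was thus above that of all genes with median centring and with replicate 2 alone. It was below that of all genes in every other setting, and nothing is read from it.

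A list of 8 genes of autophagy and metabolism, linked to p53 or carrying its name, was tested in full. Of these, 2 were raised (25%, where 5.53% of all tested genes were). *Trp53inp2* was at 0.81 ± 0.048 and *Trp53inp1* at 0.66 ± 0.045 (SD, n = 2; adjusted p of 6.58e-05 and 0.000123 by limma), both of which encode proteins that bind the LC3 and GABARAP family. The second probe of *Trp53inp1* gave 0.26. *Tigar* was at 0.54, and its second probe gave 0.41. *Dram1*, a lysosomal p53 target, was at 0.38 and *Sesn2*, an inhibitor of mTORC1 signalling, at 0.32. *Dram2* was at 0.03 and *Sesn1* at -0.08. The *Dram1* probe was the dimmest of the list, with a normalised log2 level of 7.36 and 7.21 in the control channels. *Ddit4* differed widely between the arrays, with 0.02 and -0.60. The list was chosen with earlier results of these data known, so nothing is read from the share raised.

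*Bnip3* is also a gene of the HIF response, and of 17 other genes of that response 16 were tested. Of these, *Egln3* (-1.19), *Ankrd37* (-0.93) and *Pdk1* (-0.68) were lowered (adjusted p of 0.000139, 7.01e-05 and 0.0001 by limma), *Slc2a1* (0.71) and *Ndrg1* (0.63) were raised, and the median was -0.24. These are 18.8% lowered and 12.5% raised, where 0.791% and 5.53% of all tested genes were. At an adjusted p under 0.05 by limma and any fold, 9 of the 16 (56.2%) were below 0 and 4 (25%) above. These shares were 23.7% and 30.6% of all tested genes. A second *Egln3* probe gave -0.83, and dimmer probes of *Ldha* gave -0.57 and -0.59 against -0.27 for its brightest. A dimmer *Higd1a* probe gave -0.43 against -0.19, and the *P4ha1* probes gave -0.07 and 0.05. The list was chosen with earlier results of these data known, so nothing is read from the shares. The 3 genes whose ratios on the 2 arrays lay nearest to those of *Bnip3*, out of 14288 named genes with all channels well above background, were *Cxcl12* (-1.11 and -1.20), *Abcg1* (-1.09 and -1.12) and *Unc5a* (-1.13 and -1.07), at distances of 0.072, 0.082 and 0.15.

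Markers of other cell types differed between the same RNAs. Of 10 genes of embryonic fibroblasts, 9 were tested and 7 were raised (77.8%, where 5.53% of all tested genes were), with a median of 0.81. Their summed normalised level on the log2 scale was 14.33 to 14.36 in the control channels and 15.17 to 15.22 in the depleted ones. Of 8 genes of primitive and parietal endoderm 8 were raised (100%, against the same 5.53%), with a median of 1.22 and a summed level of 17.01 to 17.11 in the control and 18.22 to 18.27 in the depleted channels. These sums weigh bright probes most, *Sparc* (16.38 and 16.53 in the control channels) and *Lama1* (15.18 and 15.23) for endoderm. For fibroblasts the brightest were *Col1a1* and *Col1a2*, at 12.59 to 12.76. Levels of different probes are not comparable, so each sum is set only against the same sum in the other channel. All tested markers were well above background in both control channels, and *Lum* was the only one not tested. Of the 13 mESC markers 0 were raised and 1 was lowered by limma (*Tdgf1*, -0.59), which is 7.69% where 0.791% of all tested genes were lowered. Their median was -0.15, and 8 of the 13 were negative. At an unadjusted p under 0.05 and any fold, 5 were above 0 and 7 below (38.5% and 53.8%, against 33.5% and 27% of all tested genes), and at an adjusted p 4 and 7 (30.8% and 53.8%, against 30.6% and 23.7%). The lowest after *Tdgf1* were *Sox2* at -0.53, *Pou5f1* at -0.48 and *Nanog* at -0.38. Above 0 were *Dppa5a* at 0.50, *Tfcp2l1* at 0.33, *Klf2* at 0.29, *Klf4* at 0.14 and *Esrrb* at 0.12. The summed level was 18.16 to 18.20 in the control and 18.31 to 18.33 in the depleted channels, opposite in direction to the median, and the brightest probe in it was that of *Dppa5a*, at 0.50. Fewer cells of a type and less RNA per cell cannot be told apart in these bulk samples. The part of these cell types in the ratios of *Bnip3*, *Sqstm1* and *Map1lc3b* was not tested. The marker lists were chosen with earlier results of these data known, so nothing is read from their shares.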

How the data were processed

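Total RNA of mESCs was measured on Agilent mouse 8x60K arrays in 2 colours. For each array the authors deposited a scanner file made with Feature Extraction (version 11.5.1.1 in the file header, whereas the methods name another version), which holds the median intensity of each spot and its background, processed signals with background subtracted and dyes normalized, and the log10 ratio of the dyes, Cy5 over Cy3. The authors also deposited log2 ratios after GeneSpring in a table. Its columns had medians of 0.091 and 0.11 and equalled the log2 ratio of the processed signals plus 0.040 and 0.039, within 0.01, for 99.7% of 55681 probes on each array, and how it was centred is not given in the sources used here. It was used as an alternative, and 0 columns of sample values were left out.

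Median signals were corrected with normexp (offset 50, which draws the ratios of dim probes towards 0) and normalized by loess. Control spots and spots with an outlier flag (215 and 227) were dropped and replicate spots averaged. A probe entered the test if it was well above background on each array in at least 1 channel, as 33009 of 55681 were. Accessions were named through RefSeq (GRCm38.p6), which named 31014 spots; other features keep the name in the file. Coordinates are given for promoters only, on the build of the RefSeq table, since the array design uses another build. Ratios were tested against 0 with lmFit and eBayes, without the spread among control cultures. The number of arrays limits the precision. Both arrays lay on 1 slide, so no batch could be examined.

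The 10 members and all lists were chosen with earlier results of these data known. The rule named all members and their probes, list genes past 1.5-fold and p 0.05, *Eef1e1*, and the 3 genes nearest to *Bnip3* by Euclidean distance of the 2 ratios. Its part on naming markers by their control level was not used, since levels of different probes are not comparable. *Ddit4* is in 2 lists. The steps were tested on simulated data. The software was limma 3.58.1 in R 4.3.3, with jsonlite 2.0.0 and data.table (version 1.17.8).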

Additional observations from a re-analysis of the deposited data

How the results depend on the processing

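The difference between *Bnip3* and *Bnip3l* kept its direction under every alternative. It was -1.23 with the processed signals and with the authors' deposited table, and -0.97 with the mean of all probes. Pathway genes raised numbered 6 with the processed signals, 6 with the authors' deposited table, 11 with median centring and 0 at 2-fold, and between 2 and 5 with each replicate left out, by fold alone. Over all genes, 2827 were raised and 64 lowered with median centring, 2130 and 617 with the authors' deposited table, and 281 and 17 at 2-fold, and 771 were lowered with the processed signals, against 1328 raised and 190 lowered. Raised genes thus made up 87.5% of the changes, 71.6% with the processed signals, 77.5% with the authors' deposited table and 97.8% with median centring, which moved the median of all genes from 0.02 to 0.18. The causes of these differences were not tested. No member past the threshold changed sign, and *Becn1* and *Ulk1* did so with median centring, *Becn1* also with replicate 1 alone. No paired analysis was possible because the control is 1 pool without replicate numbers. With 1 array left there is no test. The median signal over background was 2.68 to 3.31, which limits dim probes.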
